A study of Schmidtea mediterranea with 58 samples.

Results

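*equinox* RNAi wounds were compared with control wounds at 16 h post amputation (hpa), the time at which the *equinox* transcript was most abundant in control wounds. The comparison held 5 *equinox* RNAi libraries and 5 control libraries, 10 of the 58 libraries of the series, and they were taken by their titles. All animals were of the asexual CIW4 strain of the planarian *Schmidtea mediterranea*. *equinox* RNAi animals had been fed double-stranded RNA (dsRNA) of *equinox* in 8 feedings, and control animals had received, in the same number of feedings, dsRNA made from *unc-22* of *C. elegans*. Each replicate was bulk RNA from 5 anterior-facing wounds of tail fragments, cut some days after the last feeding, and the labels, the design text and the methods differ on that interval. dsRNA given by feeding reaches the whole animal, and the treatment began before amputation. Nothing names the animals or batches behind a replicate, so p-values measure the spread between these libraries. In bulk wounds, fewer cells of a type and less RNA per cell cannot be told apart.

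Planarians replace missing tissue from dividing stem cells, the neoblasts, and an amputated fragment first closes its wound with epidermis and then forms an outgrowth, the blastema. Wounding switches on genes in epidermis, muscle and neoblasts, and muscle carries the positional information that tells a fragment what to rebuild. *equinox* (dd_20318) is expressed in the wound epidermis and encodes a predicted secreted protein with thrombospondin type 1 and EGF domains. *bmp4* (dd_17402) encodes a signal that patterns the dorsal–ventral axis.

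The sequence below, in the study's sequence table, opens the coding part of dd_20318, the transcript that was targeted and counted. It is shown because every label check here rests on the counts of this transcript. It holds the first 150 coding bases 5′ to 3′, with the start codon in capitals, and no stop codon occurred in this frame over the 119 codons held here.
dd_20318: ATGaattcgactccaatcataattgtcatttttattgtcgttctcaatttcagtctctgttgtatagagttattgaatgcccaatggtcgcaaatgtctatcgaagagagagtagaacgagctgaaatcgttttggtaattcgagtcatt

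Total counts were 11190282 to 36251613 in *equinox* RNAi libraries (median 14436523) and 4785387 to 34695229 in control libraries (median 21872882). The shallowest of the 10 was control replicate 3. The 8 mitochondrial transcripts held 0.302% to 0.495% of the counts in *equinox* RNAi and 0.342% to 0.462% in control. Replicate 5 of both treatments stood apart from the other libraries. Over 11536 transcripts, the first principal component took 49.97% of the variance of the 10 libraries and placed *equinox* RNAi replicate 5 at 27.6 and control replicate 5 at 31.0, with the next library, *equinox* RNAi replicate 1, at 12.9 and the rest at or below 0.667. The profile of *equinox* RNAi replicate 5 correlated at 0.286 with the other libraries of its own group and at 0.552 with *equinox* RNAi at 48 hpa, and that of control replicate 5 at 0.193 with its own group and at 0.470 with control at 24 hpa. The time field of *equinox* RNAi replicate 1 gives 6 hpa, whereas its title gives 16 hpa, and its profile correlated best with the other *equinox* RNAi libraries of 16 hpa (0.577). Replicate 1 of *equinox* RNAi at 3, 6, 24 and 48 hpa has the same conflict, with time fields of 0, 3, 16 and 24 hpa. All 5 libraries were placed by title, and the *equinox* RNAi values of those times given below carry this limit.

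*equinox* itself was lower in every *equinox* RNAi library than in every control library. It stood at 3.63, 2.47, 3.62, 1.89 and 2.12 CPM (counts scaled to the TMM-corrected library total) in *equinox* RNAi replicates 1 to 5, against 13.4, 14.7, 13.4, 14.4 and 19.5 CPM in control replicates 1 to 5. The groups did not overlap, and behind these values lay 27 to 92 counts per library in *equinox* RNAi and 70 to 495 in control. The means were 2.74 ± 0.827 CPM in *equinox* RNAi and 15.1 ± 2.52 CPM in control (SD, n = 5 each; two-sided exact permutation test, p = 0.00794, the lower limit for groups of 5). The log2 fold change was -2.47 (standard error 0.489, adjusted p = 0.00252, edgeR), a 5.55-fold lower level. Without replicate 5 of both treatments the log2 fold change was -2.30 (adjusted p = 0.0359, edgeR). The time compared is the one at which control wounds held most of this transcript, so these control values also picked it. Control means at the other times were 5.19 to 9.97 CPM. The p-values and the size of this fall take no account of that choice, which favours a large fall.

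**Figure D1:**
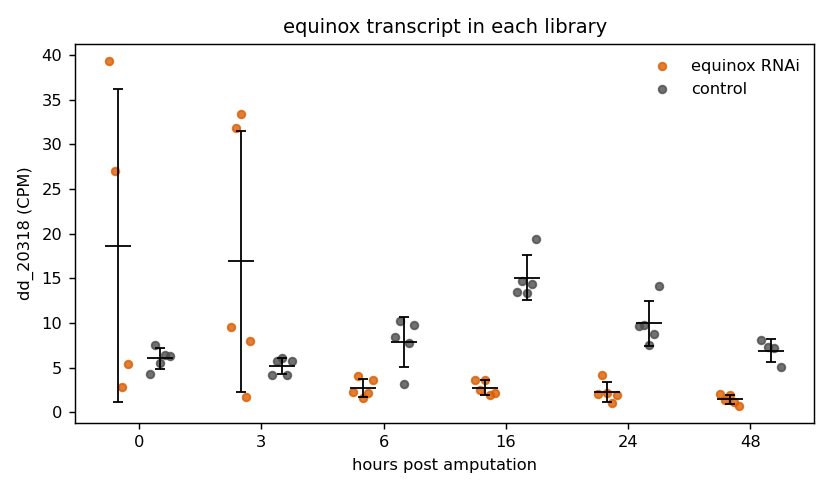
CPM of dd_20318 in each library (points) with the group mean and SD (bars), by hours post amputation on an axis with even steps, *equinox* RNAi left of control. At 16 hpa all *equinox* RNAi libraries lie at or below 3.63 CPM and all control libraries at or above 13.4 CPM, whereas libraries labelled *equinox* RNAi reach 39.3 CPM at 0 hpa and 33.4 CPM at 3 hpa.

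The label check, which rests on dd_20318 alone, held at 16 hpa and not at 0 or 3 hpa. Right after amputation, libraries labelled *equinox* RNAi held 39.3, 27.0, 2.85 and 5.37 CPM of dd_20318, and control libraries held 6.03 ± 1.21 CPM (SD, n = 5). Of these 4 libraries, 2 thus lay above every control library. At 3 hpa libraries labelled *equinox* RNAi held 9.55, 31.8, 33.4, 1.77 and 7.96 CPM, and control libraries held 4.14 to 6.10 CPM, so that 4 of the 5 lay above every control library (log2 fold change 1.73, adjusted p = 0.0203, edgeR). Other transcripts kept their direction at these times. Of the 122 transcripts called at 16 hpa (below), 68 were called in the same direction at 0 hpa and 0 in the opposite. At 3 hpa 93 were called in the same direction and 1, dd_20318 itself, in the opposite. The cause of the high dd_20318 values at 0 and 3 hpa was not tested. All values of 0 and 3 hpa given below, and the changes from 0 hpa, carry this limit.

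Across the transcriptome, 122 of 20129 transcripts differed between the treatments at 16 hpa (adjusted p under 0.05, edgeR), which is 0.606% of those tested. Of these, 62 were higher and 60 lower in *equinox* RNAi, so that neither direction dominated. Most changes were moderate. The median absolute log2 fold change of the 122 was 0.71, the smallest 0.25, and 41 changed at least 2-fold, 14 of them higher and 27 lower. Called transcripts were also abundant ones, with a median control level of 39.04 CPM for those that rose and 43.8 CPM for those that fell, beside 8.36 CPM over all transcripts tested. Together the 62 that rose took up 19017 CPM in *equinox* RNAi and 11403 CPM in control, and the 60 that fell 5275 CPM in *equinox* RNAi and 9653 CPM in control.

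The libraries of the treatments did not overlap for 104 of the 122, beside 398 of all 20129 transcripts (1.98%). The calls themselves used these libraries, so this share describes the calls and does not test them. In the other 18, the *equinox* RNAi library found inside the control range most often was replicate 3 (8 transcripts), and the control libraries found most often inside the *equinox* RNAi range were replicate 5 (8) and replicate 3 (7). Without replicate 5 of both treatments 87 transcripts passed, and 85 of them were among the 122. All 25 called transcripts named here were called without them too. Leaving out 1 library at a time gave 87 to 116 calls, of which 85 to 102 were among the 122. The annotation table used here covers 803 of the transcripts tested and only 4 of the 122, so most of the transcripts below carry a number and no gene name.

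**Figure D2:**
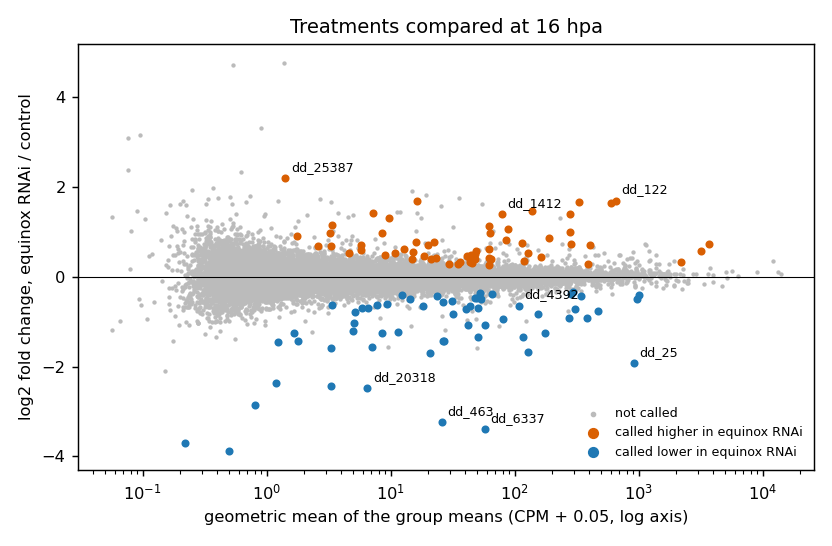
Log2 fold change of *equinox* RNAi over control at 16 hpa for 20129 transcripts (points) against their level on a log axis. The 62 called higher (orange) and the 60 called lower (blue) reach from low to high levels, with dd_6337 at -3.39 and dd_25387 at 2.20. Most are abundant, with median control levels of 39.04 and 43.8 CPM beside 8.36 CPM over all transcripts.

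Among the 10 largest falls, dd_6337 was one of the abundant ones and had the smallest adjusted p. It stood at 17.4, 26.0, 8.44, 13.1 and 22.9 CPM in *equinox* RNAi replicates 1 to 5, against 169, 185, 148, 200 and 232 CPM in control replicates 1 to 5. Every control library was thus several times above the highest *equinox* RNAi library, and the fold change was 10.5-fold lower (log2 -3.39, standard error 0.233, adjusted p = 1.47e-15, edgeR). The transcript dd_463 behaved likewise, at 9.48, 9.51, 2.15, 8.74 and 11.9 CPM in *equinox* RNAi against 74.3, 76.6, 43.2, 94.4 and 108 CPM in control. The lowest value in either group of dd_463 was that of replicate 3, and the log2 fold change was -3.23 (standard error 0.328, adjusted p = 8.24e-10, edgeR). Both transcripts have no annotation in the table used here.

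The most abundant transcript among the largest falls was dd_25. It was at 458, 515, 297.3, 453 and 634 CPM in *equinox* RNAi and at 1744, 1622, 1344, 1834 and 2425 CPM in control, with replicate 3 the lowest and replicate 5 the highest in both. Its log2 fold change was -1.93 (standard error 0.226, adjusted p = 2.15e-08, edgeR). The transcript dd_300 showed the same order of the extreme replicates, at 11.4, 13.1, 8.70, 9.93 and 14.02 CPM in *equinox* RNAi against 33.9, 37.9, 26.0, 40.02 and 48.4 CPM in control. Its fall was 3.26-fold (log2 -1.70, adjusted p = 2.71e-07, edgeR). At lower levels, dd_2748 averaged 1.40 ± 0.406 CPM in *equinox* RNAi and 7.41 ± 3.29 CPM in control, and dd_6318 averaged 0.476 ± 0.226 CPM in *equinox* RNAi and 2.61 ± 0.608 CPM in control (SD, n = 5 each).

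Other large falls rested on few counts. dd_17526 had 1, 5, 1, 2 and 1 counts in *equinox* RNAi replicates 1 to 5 and 50, 35, 7, 86 and 15 counts in control replicates 1 to 5 (log2 fold change -3.88, adjusted p = 5.15e-09, edgeR). dd_17312 had 0, 1, 0, 0 and 2 counts in *equinox* RNAi and 12, 7, 3, 22 and 11 counts in control (log2 fold change -3.71, adjusted p = 0.00315, edgeR). dd_886 had 1, 22, 3, 4 and 0 counts in *equinox* RNAi and 119, 29, 11, 68 and 22 counts in control (log2 fold change -2.85, adjusted p = 0.00176, edgeR). Relative to library size these transcripts were near the limit of detection in *equinox* RNAi, and the size of their fold changes is less certain than the direction.

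**Figure D3:**
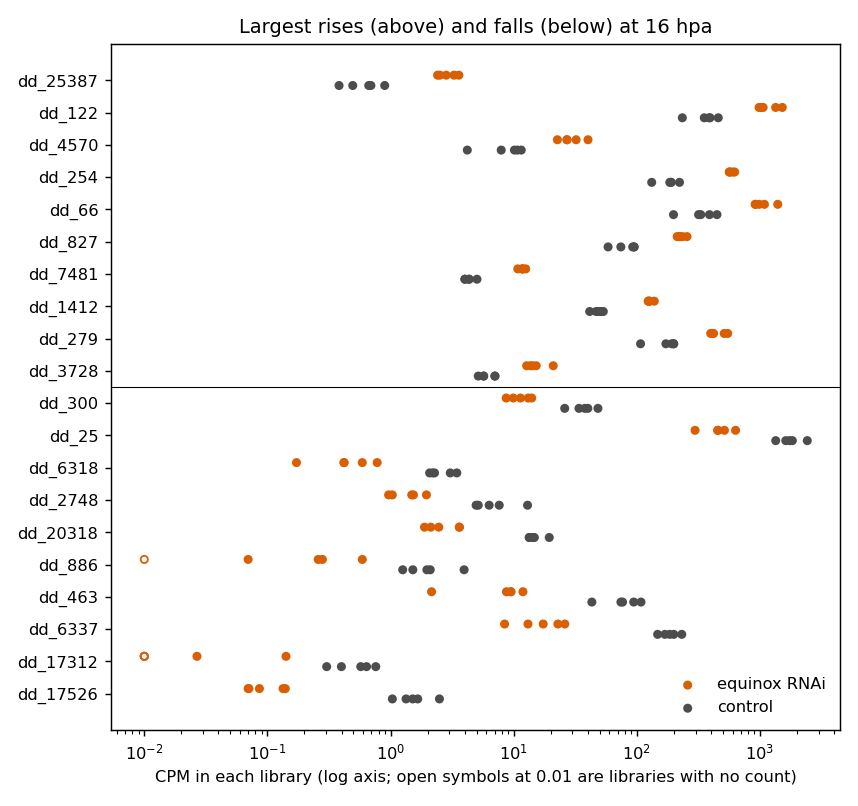
CPM in each of the 10 libraries at 16 hpa (log axis) for the 10 largest rises (above the line) and the 10 largest falls (below it) among called transcripts whose libraries did not overlap, *equinox* RNAi above control in each row. Open symbols mark libraries with no count. The levels range from dd_17312, absent from 3 *equinox* RNAi libraries, to dd_25, at up to 2425 CPM in control.

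Of the 10 largest rises, 8 were transcripts of like behavior, several of them among the more abundant of the wound. dd_122 was at 1342, 1062, 984, 1021 and 1519 CPM in *equinox* RNAi replicates 1 to 5, against 394, 353, 234, 387 and 459 CPM in control replicates 1 to 5 (3.24-fold higher, log2 1.70, standard error 0.218, adjusted p = 2.33e-07, edgeR). dd_66 was at 1087, 924, 914, 988 and 1396 CPM in *equinox* RNAi and at 331, 318, 199, 389 and 448 CPM in control (log2 1.65, adjusted p = 1.42e-08, edgeR). In both transcripts the highest libraries were those of replicate 5 and the lowest those of replicate 3, in each treatment.

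dd_254 varied little in *equinox* RNAi, at 563, 568, 606, 580 and 624 CPM, against 190, 189, 132, 222 and 185 CPM in control (log2 1.67, standard error 0.162, adjusted p = 6.82e-11, edgeR). dd_279 was at 513, 420, 398, 413 and 547 CPM in *equinox* RNAi and at 192, 172, 107, 199 and 200 CPM in control (log2 1.39, adjusted p = 1.3e-08, edgeR). In control, replicate 3 was again the lowest of both. The remaining members of this set were dd_827, dd_1412, dd_4570 and dd_3728, which averaged 229, 128, 29.8 and 15.4 CPM in *equinox* RNAi and 83.1, 48.5, 8.91 and 6.13 CPM in control, with log2 fold changes of 1.46, 1.40, 1.68 and 1.31.

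The levels of these 8 transcripts moved with time in both treatments. At 0 hpa dd_122 averaged 2143 ± 312 CPM in libraries labelled *equinox* RNAi and 1011 ± 108 CPM in control (SD, n = 4 and n = 5). It dipped to 1185 ± 234 CPM in *equinox* RNAi and 365 ± 82.6 CPM in control at 16 hpa (SD, n = 5 each), and stood at 2371 ± 486 CPM in *equinox* RNAi and 1081 ± 219 CPM in control at 24 hpa (SD, n = 5 each). At 48 hpa it was at 1230 ± 515 CPM in *equinox* RNAi and 207 ± 47.4 CPM in control (SD, n = 5 and n = 4). Thus the *equinox* RNAi mean was above the control mean at each time, and both were low at 16 and 48 hpa.

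All 8 were lower at 48 than at 0 hpa in control, by log2 fold changes from -2.59 (dd_254) to -1.81 (dd_3728). This contrast is of libraries other than those of 16 hpa, in the same model. Within *equinox* RNAi the change to 48 hpa was -1.11 for dd_254, -0.86 for dd_3728, -0.80 for dd_122 and -0.54 for dd_4570, the last of which did not pass (adjusted p = 0.0917, edgeR). The treatments differed at 48 hpa by log2 fold changes from 1.67 (dd_3728) to 2.57 (dd_122).

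**Figure D4:**
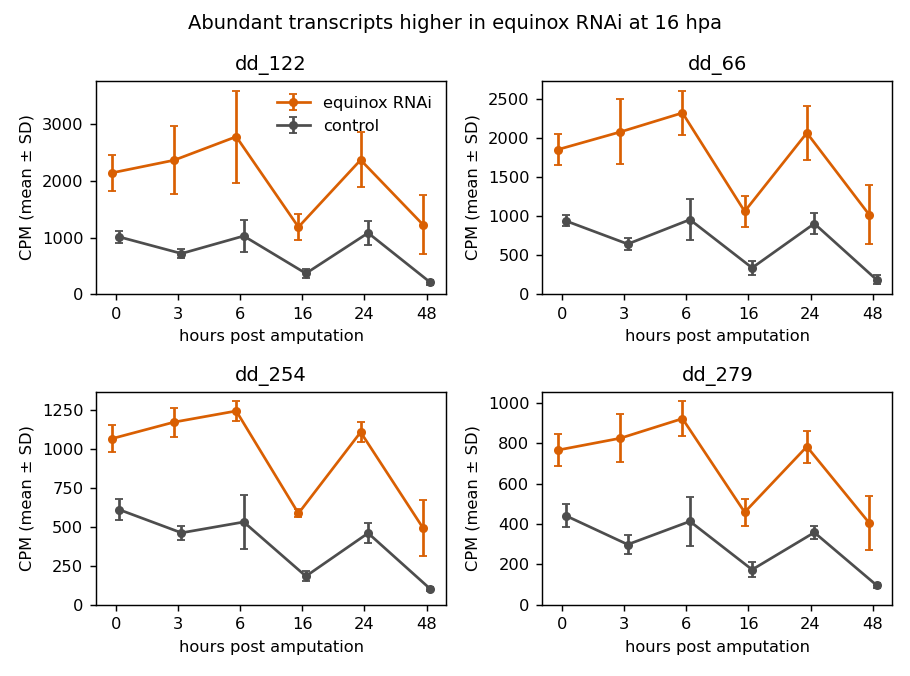
Mean CPM ± SD of dd_122, dd_66, dd_254 and dd_279 by hours post amputation (even steps), *equinox* RNAi in orange and control in grey. In each the *equinox* RNAi mean lies above the control mean at all times, also where dd_20318 goes against the label (0 and 3 hpa), and both dip at 16 hpa (dd_66 at 1062 CPM in *equinox* RNAi and 337 CPM in control).

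The other 2 of the 10 largest rises followed another course. dd_7481 was at 11.9, 10.8, 11.8, 11.7 and 12.5 CPM in *equinox* RNAi against 4.36, 4.03, 4.01, 4.32 and 5.04 CPM in control, with little spread in either group (log2 1.42, standard error 0.124, adjusted p = 1.84e-12, edgeR). Its level hardly moved with time, at 10.2 ± 1.97 CPM in libraries labelled *equinox* RNAi and 4.63 ± 0.433 CPM in control at 0 hpa (SD, n = 4 and n = 5), and at 11.96 ± 0.836 CPM in *equinox* RNAi and 4.43 ± 0.326 CPM in control at 48 hpa (SD, n = 5 and n = 4). dd_25387, the largest rise in fold, was low, at 3.28, 3.59, 2.41, 2.52 and 2.83 CPM in *equinox* RNAi and 0.665, 0.693, 0.382, 0.493 and 0.897 CPM in control (log2 2.20, standard error 0.35, adjusted p = 3.53e-05, edgeR).

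Of the 62 transcripts that rose in *equinox* RNAi at 16 hpa, 32 (51.6%) were called lower in control at 48 than at 0 hpa, beside 14.8% of all transcripts, and 6 were called higher, beside 14.7%. The 60 transcripts that fell showed a similar excess, with 27 (45%) called lower and 7 called higher in control at 48 hpa. The transcripts called at 16 hpa were more abundant than most, and the part of abundance in these shares was not tested. The median log2 change of the 62 between 48 and 0 hpa was -0.11 in *equinox* RNAi and -0.26 in control, that of the 60 was -0.27 in *equinox* RNAi and -0.35 in control, and that of all transcripts was -0.00870 in *equinox* RNAi and -0.0440 in control.

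Most of the differences of 16 hpa were also found at other times, in libraries that the 16 hpa comparison did not use. At 0 hpa, 115 of the 122 had the same direction and 68 were called in that direction. These 68 were 55.7% of the 122 and 23.8% of the 286 transcripts called at 0 hpa (1.42% of those tested). At 24 hpa 120 had the same direction and 80 were called in it, which was 65.6% of the 122 and 31.9% of the 251 called at 24 hpa (1.25% of those tested).

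At 48 hpa 114 kept the direction and 93 were called in it, which was 76.2% of the 122 but only 2.64% of the 3528 transcripts called at 48 hpa (17.5% of those tested). Called transcripts in the opposite direction numbered 0 at 0 hpa, 0 at 24 hpa and 3 at 48 hpa. At 3 hpa 93 were called in the same direction and 1 in the opposite, beside 2282 of 20129 transcripts called at that time. At 6 hpa these numbers were 98 and 1, beside 1541 called. The sign was the same at all 6 times, with 0 and 3 hpa among them, for 106 of the 122, and 54 were called in the same direction at 0, 16, 24 and 48 hpa, 31 of them higher and 23 lower. The sizes were also alike, with median log2 fold changes of 0.54, 0.59 and 0.72 at 0, 24 and 48 hpa for the 62 that rose and -0.67, -0.62 and -0.60 for the 60 that fell. Those medians at 16 hpa, where the transcripts were chosen, were 0.63 and -0.88.

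Among the largest falls, dd_6337 had a difference that was present at 0 hpa and smaller at 48 hpa, and its log2 fold change was -3.60 right after amputation, -3.80 at 24 hpa and -1.62 by 48 hpa. In control it was lower at 48 than at 0 hpa by -1.52 (adjusted p = 6.63e-07, edgeR), and in *equinox* RNAi the change was 0.46 (adjusted p = 0.258, edgeR). dd_463 and dd_2748 varied less, at -2.42 and -2.47 at 0 hpa and at -2.94 and -2.02 at 48 hpa. Of the 10 largest falls, dd_20318 was the one with a fold change above 0 at 0 hpa (1.63, adjusted p = 0.0797, edgeR).

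**Figure D5:**
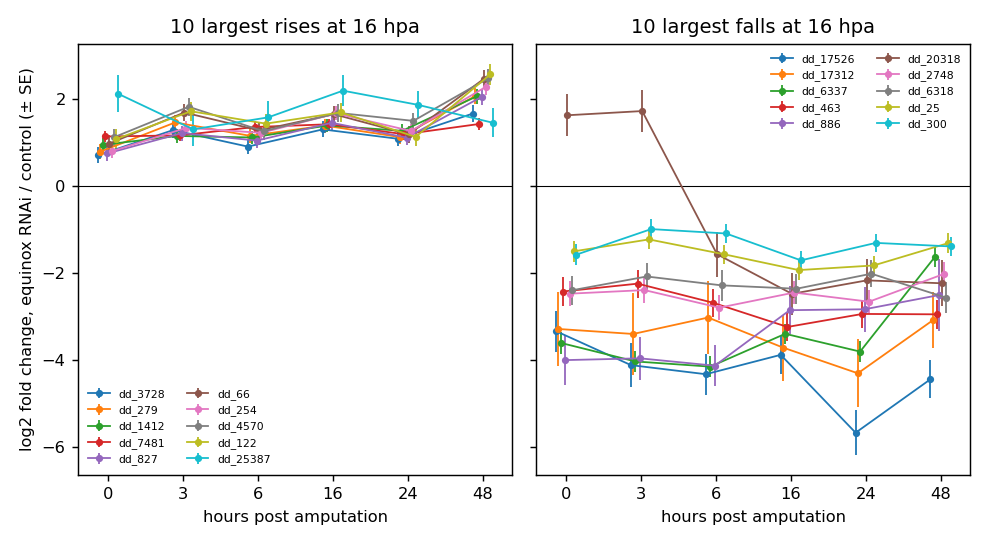
Log2 fold change of *equinox* RNAi over control (± standard error) by hours post amputation (even steps) for the 10 largest rises and the 10 largest falls of 16 hpa. All lines stay on 1 side of 0 except that of dd_20318, the targeted transcript, which goes against the label at 0 hpa (1.63) and 3 hpa (1.73) and lies at -2.47 at 16 hpa.

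Whether the treatments differed more at 16 than at 0 hpa was tested by the interaction of RNAi and time. Between 16 and 0 hpa, 2452 transcripts (12.2%) changed in *equinox* RNAi and 3721 (18.5%) in control, with 4 and 5 libraries at 0 hpa. The interaction was called for 5 transcripts (0.0248%), 4 higher and 1 lower. An unadjusted p under 0.05 was found for 1077 of the 20129 transcripts (edgeR), a cut that about 1 in 20 pass by chance. Only dd_20318 was both among the 5 and among the 122, with an interaction of -4.10 on the log2 scale (adjusted p = 0.00303, edgeR). This value rests on the libraries labelled *equinox* RNAi at 0 hpa that hold more dd_20318 than control, and when only the libraries of the 4 groups concerned were fitted it did not pass (adjusted p = 0.0683, edgeR). It also contains the control level of dd_20318 at 16 hpa, by which this time was picked. Its size and p-values take no account of that choice, which favours a large interaction. Of the 122, 54 were not called at 0 hpa, 26 of them higher and 28 lower, and dd_20318 is the one of these 54 that the interaction called, with the limits just given.

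The other 4 transcripts of the interaction had no called difference at 16 hpa in the fit of all groups and were lower in libraries labelled *equinox* RNAi at 0 hpa. At 0 hpa dd_12695 averaged 9.24 ± 0.504 CPM in libraries labelled *equinox* RNAi and 17.3 ± 1.17 CPM in control (SD, n = 4 and n = 5). It averaged 28.4 ± 1.67 CPM in *equinox* RNAi and 25.7 ± 2.99 CPM in control at 16 hpa (SD, n = 5 each; interaction 1.04, adjusted p = 0.000374, edgeR). At 0 hpa dd_22973 averaged 0.405 ± 0.291 CPM in libraries labelled *equinox* RNAi and 3.31 ± 2.12 CPM in control (SD, n = 4 and n = 5). At 16 hpa it averaged 11.3 ± 3.38 CPM in *equinox* RNAi and 6.79 ± 2.37 CPM in control (SD, n = 5 each). From 0 to 16 hpa dd_12695 increased in both treatments, by 1.62 in *equinox* RNAi and 0.58 in control on the log2 scale, whereas dd_22973 increased by 4.82 in *equinox* RNAi and its change in control, 0.96, did not pass (adjusted p = 0.0805, edgeR). The interactions of dd_22973, dd_1268 and dd_5339 were 3.86, 1.91 and 0.71 (adjusted p = 0.00485, 0.0317 and 0.00711, edgeR). The call of dd_1268 was lost in 12 of the fits that left out 1 library (adjusted p up to 0.303, edgeR), with no filter on low counts (0.0604) and when libraries of the other groups were left out (0.0644), and those of dd_22973 and dd_5339 were lost without *equinox* RNAi replicate 5 at 0 hpa (adjusted p = 0.0919 each, edgeR). Placed by the time field, dd_12695, dd_22973 and dd_1268 did not pass (adjusted p = 0.67, 0.156 and 0.291, edgeR). Without *equinox* RNAi replicate 1 at 0 hpa 11 transcripts were called, and without its replicate 5 at 0 hpa 2.

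Early wound-induced genes are switched on within hours of any injury, and a list of them known by transcript number was read here, which the study displays for these samples. At 16 hpa 1 of its 8 members was called, lower, and 0 were called higher. All 8 fold changes were below 0, with a median of -0.21 and a range from -0.64 to -0.0055, beside a median of -0.00399 over all transcripts. Those of the 8 mitochondrial transcripts were all below 0 as well (median -0.07), so the shared sign alone does not set the list apart. The called wound-induced member, dd_4392, was at 81.2, 90.3, 86.3, 97.7 and 75.3 CPM in *equinox* RNAi against 137, 137, 168, 119 and 113 CPM in control. The groups did not overlap, and the log2 fold change was -0.64 (standard error 0.136, adjusted p = 0.00531, edgeR). A fall of like size was called at 6 hpa (log2 -0.65, adjusted p = 0.00184, edgeR). Its direction was not the same at all times, with -0.30 right after amputation, -0.18 at 3 hpa, -0.10 a day after the cut and 0.90 at 48 hpa (adjusted p = 8.12e-06, edgeR).

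Without control replicate 3, its highest library and the shallowest, dd_4392 no longer passed (log2 -0.55, adjusted p = 0.0501, edgeR), and placed by the time field its fold change was larger and did not pass either (log2 -0.78, adjusted p = 0.501, edgeR). Next in size came dd_10393, whose best human match is LRFN5, a synaptic adhesion protein in mammals. It was at 12.2, 15.0, 11.6, 15.8 and 10.7 CPM in *equinox* RNAi and at 19.1, 17.5, 17.2, 18.1 and 12.8 CPM in control (log2 -0.37, adjusted p = 0.352, edgeR). The groups overlapped through control replicate 5.

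*bmp4* showed no called difference at 16 hpa. dd_17402 was at 3.07, 2.73, 2.41, 2.59 and 2.48 CPM in *equinox* RNAi and at 2.96, 3.20, 3.44, 3.11 and 2.69 CPM in control (log2 -0.20, standard error 0.192, adjusted p = 1, edgeR). The groups overlapped, and a change of the size of the standard error was not detectable at this depth. Its fold change at 48 hpa was -0.89 on the log2 scale (adjusted p = 0.000501, edgeR). *teneurin* (dd_5439), which encodes a membrane protein, averaged 332 ± 38.5 CPM in *equinox* RNAi and 312 ± 27.2 CPM in control (SD, n = 5 each; log2 0.09, adjusted p = 1, edgeR).

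Position control genes are expressed regionally in muscle, and the transcripts of posterior ones normally decline in a fragment that regrows a head. Of the 2 given by number, again as the study displays them for these samples, 0 were called at 16 hpa. dd_13735 was at 22.8, 20.3, 19.0, 22.6 and 26.7 CPM in *equinox* RNAi and at 20.4, 25.5, 18.5, 21.4 and 26.8 CPM in control, so the groups overlapped throughout (log2 -0.02, adjusted p = 1, edgeR). No decline was yet seen in it at 16 hpa. Against 0 hpa it was higher by 0.70 in *equinox* RNAi (adjusted p = 7.94e-05, edgeR) and by 0.98 in control (adjusted p = 2.11e-08, edgeR). At 48 hpa the same transcript was higher in *equinox* RNAi by 2.27 (adjusted p = 4.42e-18, edgeR). dd_9831 averaged 67.9 ± 3.21 CPM in *equinox* RNAi and 65.0 ± 2.65 CPM in control at 16 hpa (SD, n = 5 each; log2 0.06, adjusted p = 1, edgeR). Its changes from 0 to 16 hpa, 0.07 in *equinox* RNAi and 0.11 in control, did not pass.

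The 4 called transcripts with an annotation are known by their best match to human proteins, and the roles given are those of the human or mouse proteins. dd_101 holds a Kunitz domain, found in protease inhibitors, with EPPIN as its best match. It was at 104, 135, 86.7, 117 and 127 CPM in *equinox* RNAi against 261, 257, 176, 285 and 372 CPM in control (log2 -1.25, standard error 0.211, adjusted p = 0.000159, edgeR). Every control library was higher, the closest being replicate 3. The fall was present at the other times as well, at -1.16 at 0 hpa and -0.97 at 48 hpa.

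dd_10188 matched THNSL2, a relative of threonine synthase. Its levels were 5.02, 5.60, 4.82, 5.45 and 6.66 CPM in *equinox* RNAi and 13.4, 12.4, 8.21, 15.4 and 15.1 CPM in control (log2 -1.25, standard error 0.16, adjusted p = 1.67e-07, edgeR). The fold change stood at -1.54 at 0 hpa and at -0.49 by 48 hpa. dd_10585, with immunoglobulin and death domains, matched UNC5D, a receptor for netrin guidance cues. It was at 45.8, 45.3, 43.9, 47.3 and 42.1 CPM in *equinox* RNAi and at 64.0, 65.3, 52.3, 67.8 and 64.6 CPM in control (log2 -0.49, standard error 0.0938, adjusted p = 0.00121, edgeR), a small but non-overlapping difference of much the same size at 0 hpa (-0.48) and 48 hpa (-0.58).

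dd_10479 was the annotated transcript that rose. It matched KY, a protein with a transglutaminase-like domain that skeletal muscle needs in the mouse, and was at 25.7, 22.6, 27.8, 23.0 and 23.7 CPM in *equinox* RNAi against 19.0, 17.8, 18.3, 17.4 and 20.01 CPM in control (log2 0.41, standard error 0.091, adjusted p = 0.0106, edgeR). The fold changes at 0, 24 and 48 hpa were 0.17, 0.14 and 0.18 and did not pass. Without *equinox* RNAi replicate 3 or control replicate 4 the adjusted p was 0.0729 and 0.0521, and it was 0.0673 in a fit of the 10 libraries alone (edgeR).

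Groups of genes with a shared function were read from the same annotation, which covers part of the transcriptome, and few members moved. Of 22 tested members of secreted and receptor signalling, UNC5D-like dd_10585 was called lower and 0 higher, with a median log2 fold change of 0.03. The most abundant others were dd_10624 (best match ERBB4, a growth factor receptor), at 76.3 CPM in *equinox* RNAi and 72.5 CPM in control, and dd_10380 (UNC5B, a netrin receptor), at 64.5 CPM in *equinox* RNAi and 71.3 CPM in control, neither called. Of 12 tested members of muscle and the actin cytoskeleton, KY-like dd_10479 was called higher and 0 lower, and the median was 0.14. The most abundant, dd_1006 (ATP2A2, the calcium pump of muscle), averaged 489 CPM in *equinox* RNAi and 513 CPM in control and was not called.

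In the remaining groups 0 transcripts were called in either direction. These were 20 tested members of cilia and axonemes (median log2 fold change -0.02), 22 neuronal receptors, channels and synapse proteins (-0.04), 18 transcription factors (-0.06), 14 of extracellular matrix and adhesion (0.07), 9 of replication and the cell cycle (-0.03), 8 of the TRAF family (-0.05), 4 innexins (-0.10), 3 ribosomal proteins (0.05), 8 mitochondrial transcripts (-0.07) and 1 tubulin (-0.12). The extracellular matrix group included dd_1054 (HSPG2, perlecan), at 1798 CPM in *equinox* RNAi and 1652 CPM in control, and dd_1070 (COL2A1, a fibrillar collagen), at 875 CPM in *equinox* RNAi and 822 CPM in control. With so few members and a background of 0.606%, counts of 0 or 1 do not set a group apart. No table used here links the markers of epidermis or neoblasts to their dd numbers, and the share of each cell type in the wounds was not examined.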

How the data were processed

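RNA sequencing reads of 50 bp from 58 libraries were mapped by the authors to the dd_Smed_v6 transcriptome with bowtie, and reads were counted per contig and summed per transcript. The submitters' processing notes name cutadapt 1.8, Bowtie 1.2, SAMtools 1.6 and DESeq. The deposited table holds raw counts for 28742 transcripts, without normalization. Strandedness and the treatment of reads shared by similar transcripts are not given in the sources used here, so counts of near-identical transcripts are uncertain. No column was left unmapped.

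Libraries were grouped by title. One model over 12 groups was fitted to the counts with edgeR 4.0.16 in R 4.3.3 (robust quasi-likelihood, TMM). filterByExpr with a minimum count of 10 kept 20129 transcripts, which held at least 99.87% of each library's counts. Treatments were contrasted at each time, 16 and 48 hpa with 0 hpa within a treatment, and the interaction was the difference of the changes at 16 hpa. P-values were adjusted over all transcripts by Benjamini-Hochberg at 0.05. The study itself made pairwise DESeq comparisons. Correlations and components used log2 CPM with a prior count of 2 for transcripts above 5 CPM. Replicates of a group differed by at least 4.92 in chi-square per degree of freedom, so each counts once. The test was checked on simulated data.

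Transcripts named are those the paper numbers, the 10 largest rises and 10 largest falls without overlap and with a mean of at least 10 counts in a group, annotated calls, interaction calls, and called or most abundant members of each list. The members and lists were chosen with earlier results of these data known. Alternatives were RLE factors, DESeq2 1.42.0, no filter, only the groups compared, replicate blocks, other thresholds, placement by the time field, and libraries left out.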

Additional observations from a re-analysis of the deposited data

Results flagged for a closer look

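Among 52 groups of 5 libraries examined for a library far from the others, 5 had one, and chance gives about 1 in 20. *equinox* RNAi replicate 5 was the highest of its group for dd_17312 (0.142 CPM, from 2 counts) and for dd_1412 (139 CPM). Control replicate 5 was the highest of its group for dd_20318 (19.5 CPM), and control replicate 3 was the lowest for dd_10585 (52.3 CPM). *equinox* RNAi replicate 2 had the highest total of its group, 36251613 counts. In each of the 4 transcripts the groups did not overlap with or without that library.

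The effect of RNAi differed between 16 and 0 hpa by the interaction test (edgeR) for 5 transcripts. The interactions on the log2 scale were -4.10 for dd_20318, 1.04 for dd_12695, 0.71 for dd_5339, 1.91 for dd_1268 and 3.86 for dd_22973. For dd_20318 the libraries labelled *equinox* RNAi at 0 hpa ranged from 2.85 to 39.3 CPM, and the call was lost in a fit of only the libraries of these groups (adjusted p = 0.0683, edgeR). The time compared was picked by the control level of dd_20318, which favours a large interaction. The call of dd_1268 was lost in 12 fits that left out 1 library, those of dd_22973 and dd_5339 without *equinox* RNAi replicate 5 at 0 hpa, and that of dd_12695 with libraries placed by the time field (adjusted p = 0.67, edgeR).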

How the results depend on the processing

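The 122 calls between treatments at 16 hpa became 76 at an adjusted p under 0.01 and 413 in a fit of the 10 libraries alone with a replicate block, of which 120 were among the 122. Without the block that fit gave 84, of which only 72 were among the 122. A replicate block in the fit of all groups gave 127, of which 118 were among the 122. Same-numbered libraries correlated at 0.098 to 0.772 in their deviations from the group means, and libraries of other numbers at -0.698 to 0.572. Of the same-numbered pairs 4 of 5 were above 0.1, and 7 of 10 libraries correlated best with their own number. Pairing is thus not settled, and the block is given here alone. The cause of these shifts was not tested. DESeq2 gave 157 calls, RLE factors 121, no filter 100, and placement by the time field 112. Leaving out 1 library at a time gave 87 to 116 calls. Calls of the interaction numbered 14 with DESeq2, 2 by the time field, 3 without replicate 5 of both treatments at 16 hpa (chosen after seeing the data), and 2 to 11 leaving out 1 library.

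Calls between 16 and 0 hpa stayed within 1.5 times under each alternative, at 1901 to 2240 in *equinox* RNAi and 3053 to 3725 in control leaving out 1 library. The fold change of dd_20318 stayed past the threshold under each alternative, from -2.59 to -2.37 leaving out 1 library. No fold change named here reversed a call. Over all alternatives, single transcripts kept their side of the threshold in 1338 refits, lost a call in 30 and gained one in 3. The 3 were dd_1268 (0.43, adjusted p = 0.00456), dd_22973 (0.73, adjusted p = 0.00342) and dd_10393 (-0.36, adjusted p = 0.0443, edgeR), all in the fit of the 10 libraries with a replicate block. DESeq2 gave no adjusted p for dd_17526 and dd_17312. Depth limits what can be said of transcripts with few counts, above all in control replicate 3.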
